A study of Rattus norvegicus with 30 samples.

Results

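The mean effect of kainate over 5 times was the equal-weight average, for each probe set, of the differences between kainate and phosphate-buffered saline (PBS) arrays of the same time, on log2 signal. All 30 arrays of the series entered it. Rats had been given kainate and their hippocampus was taken 1, 6, 24, 72 or 240 h later, and at each time a PBS group served as the control, with 3 arrays in each of 10 groups. Total RNA was hybridised to Affymetrix arrays. The strain, age, sex, dose and route are not given in the sources used here, nor whether each array held the RNA of 1 animal. P-values therefore measure the spread between these arrays. A probe set was tested when its signal exceeded 35 on at least 3 arrays, which held for 6314 of 8740 probe sets that are not array controls and gave 3707 genes. Each gene was read from its tested probe set with the highest mean log2 signal.

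Kainate is an agonist of the kainate and AMPA types of glutamate receptor and provokes limbic seizures in rats. Neurons answer intense firing with a fast wave of immediate early genes, which code for transcription factors and synaptic proteins and are soon switched off again. Growth factors, neuropeptides and inflammatory signals follow, and microglia and astrocytes later take on reactive states around injured neurons. In a homogenate of whole tissue, fewer cells of a type and less RNA per cell cannot be told apart.

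Within groups, the median correlation between 2 arrays was 0.947. A principal component analysis put 16.2% of the variance on an axis that set the 12 arrays of 6 and 72 h (scores 12.03 to 21.1) apart from the 18 arrays of 1, 24 and 240 h (scores -29.9 to 1.08). Kainate and PBS arrays of a time lay in the same set, so each difference was taken within a set. The log2 ratio of the 3 prime to the 5 prime beta-actin probe sets was 0.61 ± 0.20 in kainate and 0.55 ± 0.15 in PBS arrays (SD, n = 15 each). For Gapdh this ratio was -0.01 ± 0.12 in kainate and -0.03 ± 0.12 in PBS arrays (SD, n = 15 each).

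The 5 genes with the largest mean rise were the chemokine Ccl2, the galectin Lgals3, the matricellular protein Ccn1, the phosphatase Dusp1 and the neurotrophin Bdnf. Those that fell most included the energy sensor kinase subunit Prkaa2, the synaptic kinase subunit Camk2a, the heparan sulfate enzyme Ndst1, the potassium channel Kcnq3 and the AMPA receptor subunit Gria1. The mean effect passed for 156 of 3707 genes, or 4.21%, at an adjusted p under 0.05 (limma, Benjamini-Hochberg over all probe sets tested). It was higher after kainate for 100 genes (2.7% of those tested) and lower for 56 (1.51%). At an unadjusted p under 0.05 there were 291 higher and 427 lower genes, and the median mean effect over all genes was -0.04 on the log2 scale. Of the 100 genes that rose, 14 exceeded the minimum signal on under 3 PBS arrays and so were tested through their kainate arrays. Of the 56 that fell, 1 was tested through its PBS arrays. Over all 3707 tested genes 176 exceeded the minimum on under 3 PBS arrays and 159 on under 3 kainate arrays. Among the 76 genes named by rule or after their values were seen, those that rose or fell and were tested in this way were Lgals3, Ccn1, Spp1, Socs3, Zmiz1, Plcd1 and the falling Prkaa2. Their sizes depend on how low signals are treated. On log2 of signal plus 16 without a floor Lgals3 had a mean effect of 1.07 in place of 1.49, Ccn1 1.03 in place of 1.38 and Zmiz1 0.57 in place of 0.86. The median mean effect was 0.53 (1.44-fold) among the genes that rose and -0.35 (1.28-fold lower) among those that fell, 11 genes rose by more than 1 and none fell by as much.

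**Figure D1:**
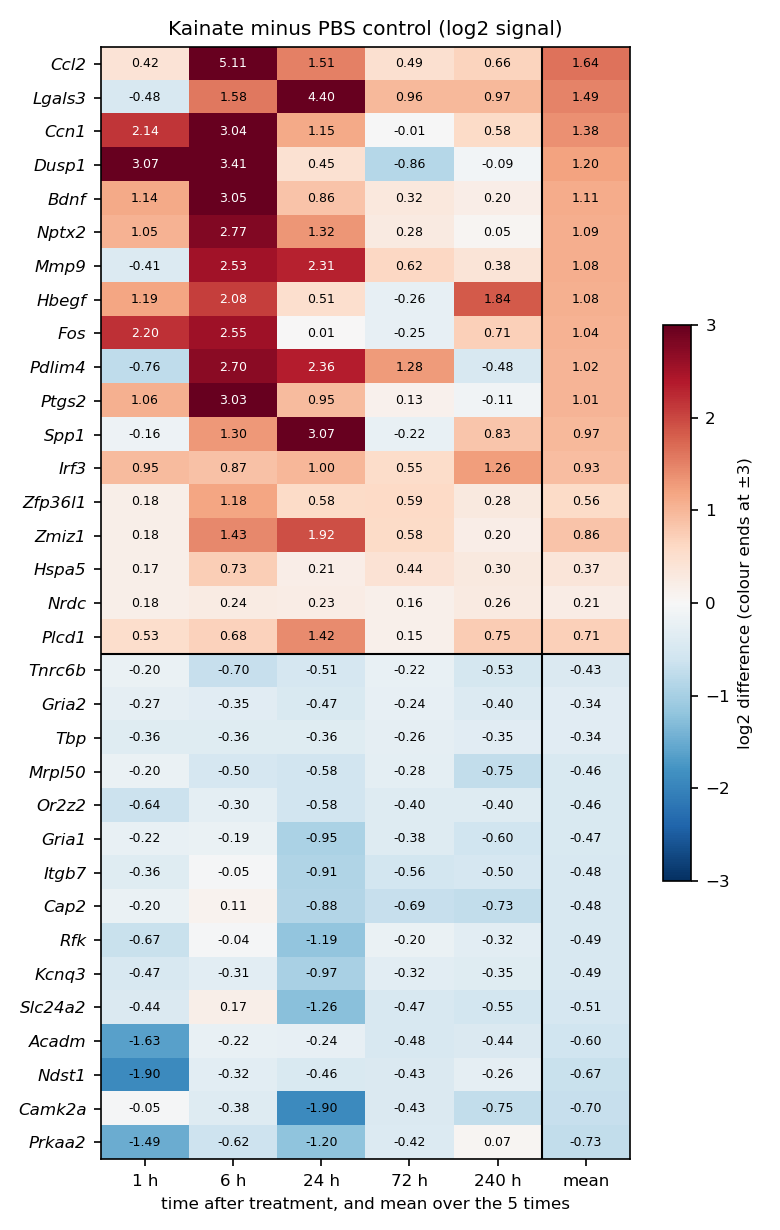
Log2 difference of kainate minus PBS control at each time and its mean over the 5 times (columns) for the genes with the largest mean rises and falls and for genes with the same sign at all 5 times (lines of the grid, 1 gene each). Rises above the black line reach 5.11 at 6 h (Ccl2) and 4.40 at 24 h (Lgals3), while most falls lie between 0 and -1 at every time.

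The size of the effect differed between times for many of these genes. The rises were carried by the middle of the series: in order of time, the 100 genes that rose had median effects of 0.24, 1.08, 0.66, 0.21 and 0.12. The largest effect lay at 6 h for 43 of them and at 24 h for 45. The 56 genes that fell had medians of -0.20, -0.31, -0.72, -0.32 and -0.22 at the same times, and 36 of them were lowest at 24 h. An F test of the 4 differences between the 5 effects in the same limma fit passed for 250 genes, 6.74% of those tested. Among them were 68 of the 100 genes that rose and 10 of the 56 that fell. The mean and the F test rest on the same arrays as the single times. Taken alone, 24 h had 447 genes passing (12.1%), 6 h had 140 (3.78%), 1 h had 28 (0.755%), and 72 and 240 h had 2 each (0.054%). Of the 552 genes passing at some single time 417 did not pass for the mean.

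The sign was the same at all 5 times for 25 of the 100 genes that rose and 29 of the 56 that fell. Over all tested genes it was the same for 77 of 1540 with a positive mean (5%) and 228 of 2167 with a negative mean (10.5%). None of the 156 genes passed in the direction of its mean at 4 or 5 single times. Bdnf, Nptx2 and Plat, named after their values were seen, passed in that direction at 3. Arc, Nr4a1 and Egr1 passed at 3 times as well, but at 24 h in the other direction. Of the 156 genes 21 passed at no single time, 6 that rose and 15 that fell.

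**Figure D2:**
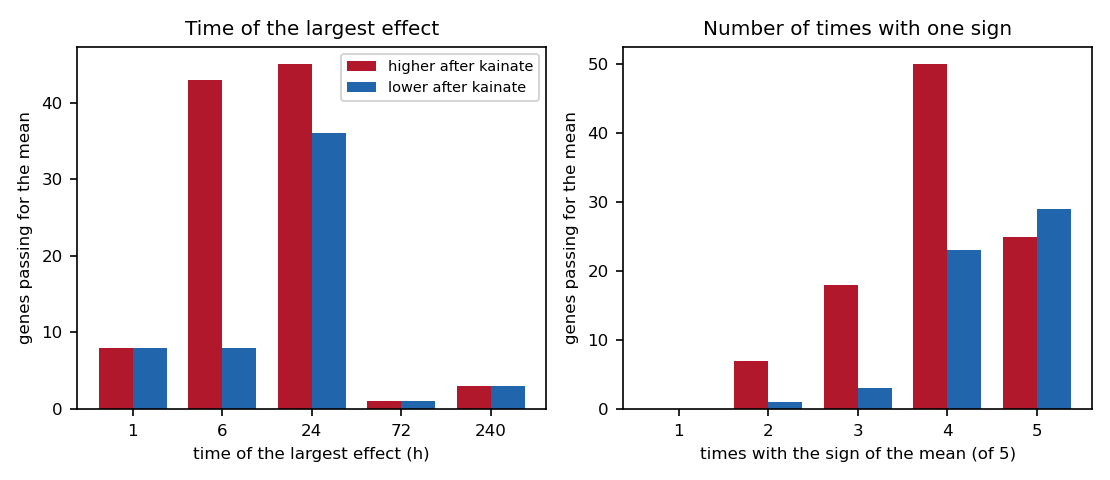
Number of genes passing for the mean effect by the time of their largest effect (left) and by the number of times that share the sign of the mean (right), for genes higher and lower after kainate. Most rises peaked at 6 h (43 genes) or 24 h (45 genes), and 29 of the 56 falls had the same sign at all 5 times.

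Bdnf, a neurotrophin that acts through the receptor TrkB, passed at 3 single times and in the mean. Its signal was 241, 179 and 224 on the kainate arrays of 1 h, against 102, 85.7 and 103 on the PBS arrays. At 6 h it was 704, 771 and 615 after kainate, against 80.3, 83.3 and 88.1 after PBS. The kainate arrays of 24 h read 155, 149 and 176, against 68.2, 107 and 94.5 on the PBS arrays. In each of these groups every kainate array lay above every PBS array. At 72 h the kainate arrays read 86.2, 93.1 and 99.2, against 74.9, 66.2 and 83.0 on PBS arrays, still without overlap. At 240 h the values of 84.0, 119 and 104 after kainate overlapped with 78.8, 91.5 and 95.9 after PBS. The mean effect of Bdnf was 1.11 (SE 0.08, limma adjusted p = 4.01e-11), a 2.16-fold rise, and 5 of its 7 tested probe sets passed, with means between -0.01 and 1.18.

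Nptx2, a secreted pentraxin that gathers AMPA receptors at synapses, had the smallest adjusted p of the genes named here. It read 652, 533 and 481 at 1 h after kainate, against 213, 277 and 322 after PBS. At 6 h it read 1762, 1809 and 2135 after kainate, against 278, 289 and 268 after PBS, and at 24 h 519, 641 and 528, against 236, 253 and 191. Groups did not overlap at these times but did at 72 and 240 h, where the effects were 0.28 and 0.05. Its mean effect was 1.09 (SE 0.07, limma adjusted p = 2.7e-12). Plat, the tissue plasminogen activator, had effects of 0.83, 1.45, 0.79, 0.23 and -0.18 from the first to the last time and a mean of 0.62 (SE 0.08, limma adjusted p = 9.52e-06).

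**Figure D3:**
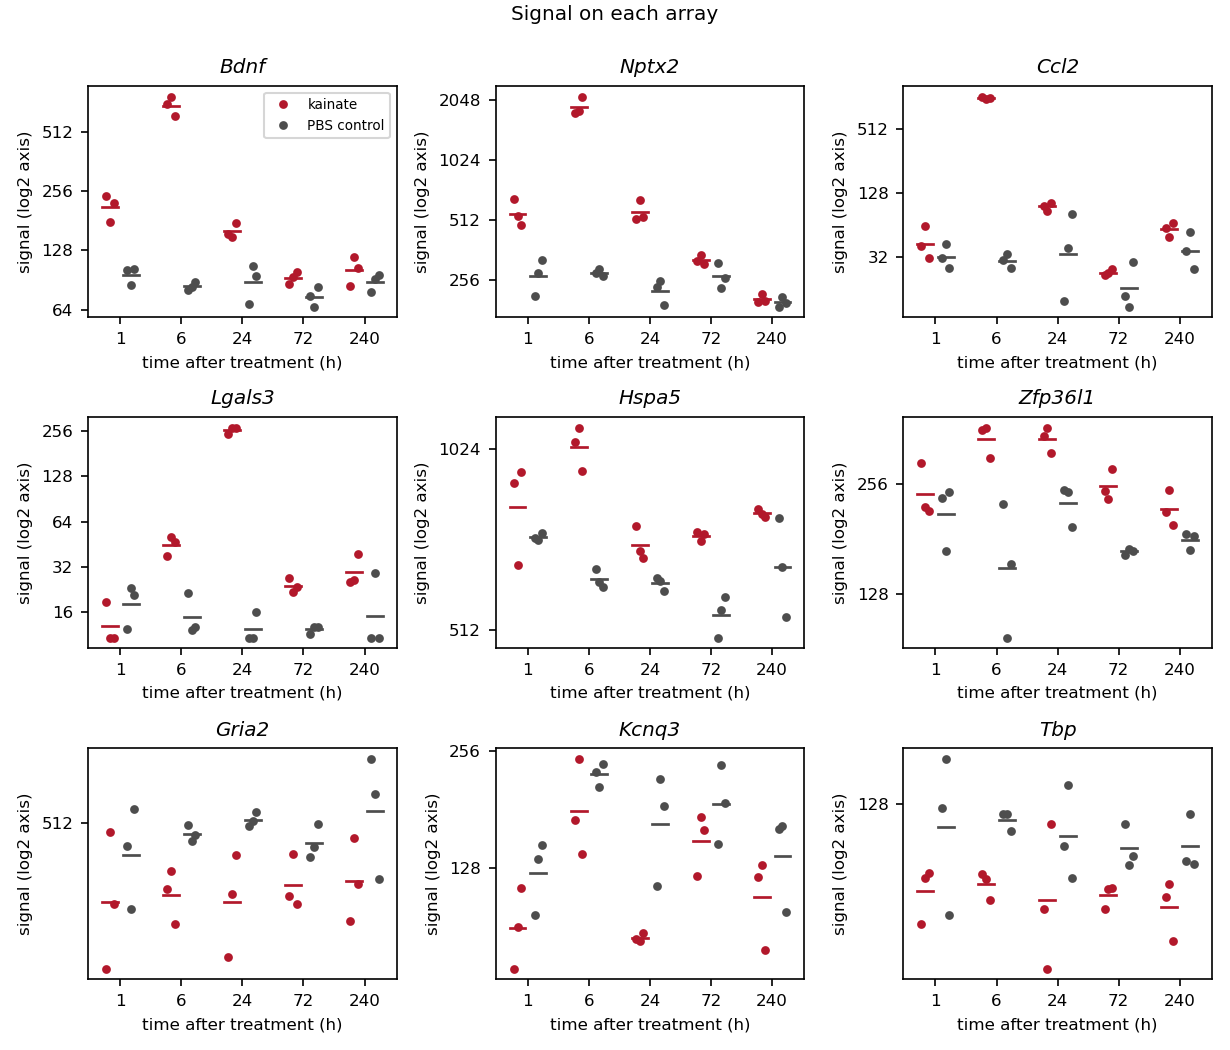
Signal of 9 genes on each of the 30 arrays (log2 axis) by time after treatment, with kainate left of PBS control. Points are arrays and bars are the mean of log2 signals of 3 arrays. Bdnf, Nptx2, Ccl2 and Lgals3 peak sharply, while Hspa5 and Zfp36l1 are shifted upward and Gria2, Kcnq3 and Tbp downward at each time.

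Ccl2, a chemokine that draws monocytes, had the largest mean effect and owed most of it to a single time. Its signal at 6 h was 1044, 994 and 1013 after kainate, against 29.7, 34.4 and 24.96 after PBS. After 24 h it was 97.3, 87.3 and 103 with kainate, against 12.2, 38.6 and 81.0 after PBS. The groups overlapped at 1, 72 and 240 h. The effect at 6 h was 5.11, which made up 62.4% of the summed sizes of its 5 effects, and the mean was 1.64 (SE 0.19, limma adjusted p = 1.4e-06). Socs3, a feedback inhibitor of cytokine signalling, had an effect of 2.998 at 6 h and 0.14 to 0.98 at the other times (mean 0.90, adjusted p = 0.000813). Each list count from here on is to be read beside the shares over all tested genes, 2.7% higher and 1.51% lower. Of 17 tested cytokine, chemokine and signalling genes 6 rose and none fell, with a median mean effect of 0.11. Beside Ccl2 and Socs3 they were Stat3 (0.64), the chemokine Ccl3 (0.62), the inhibitor of NF-kappaB Nfkbia (0.55) and the adhesion molecule Icam1 (0.53). Ccl3 stood at the floor, the lowest value used, on 10 of 15 kainate and 14 of 15 PBS arrays. It too was tested through its kainate arrays, and its size is poorly set.

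The genes of the immediate early wave had the highest median of any list, 0.47, with 12 of 20 tested transcription factors higher and none lower. Fos, a subunit of the AP-1 factor, read 1483, 1115 and 1505 at 1 h after kainate, against 252, 446 and 228 after PBS. At 6 h it read 1751, 1501 and 1760 after kainate, against 266, 267 and 326 after PBS. The kainate arrays of these times were far above all PBS arrays. At 24 h the groups overlapped, at 72 h every kainate array was lower (237, 188 and 261, against 265, 269 and 274 after PBS) and at 240 h every kainate array was higher (336, 325 and 296, against 183, 173 and 233 after PBS). Its mean effect was 1.04 (SE 0.08, limma adjusted p = 5.22e-10). Junb, another AP-1 subunit, had effects of 2.84 and 2.99 at 1 and 6 h and -1.13 at 24 h, with a mean of 0.92 (adjusted p = 0.000821). Egr2 had a mean of 0.89, Nr4a2 0.69, Jun 0.59, Cebpb 0.54 and Klf4 0.54.

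For 3 genes of activity, singled out after their values were seen, the mean rise stood beside an effect at 24 h that passed in the other direction. Arc, a protein of the postsynaptic cytoskeleton that drives removal of AMPA receptors, read 1983, 1913 and 1963 at 1 h after kainate, against 393, 588 and 403 after PBS. The 24 h arrays read 249, 223 and 250 after kainate, against 384, 390 and 399 after PBS. Its effects were 2.11 and 1.86 at 1 and 6 h, -0.70 and -0.41 at 24 and 72 h and 0.00 in size at 240 h, and the mean was 0.57 (SE 0.07, limma adjusted p = 1.69e-06). The orphan nuclear receptor Nr4a1 had effects of 3.06, 2.37, -0.92, -0.61 and -0.68 (mean 0.65, adjusted p = 0.000894). Egr1, a zinc finger factor, had effects of 1.41, 1.18, -0.64, -0.29 and 0.05 (mean 0.34, adjusted p = 0.0013). The positive mean of these genes therefore describes the first 6 h and not the later times.

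Of 17 tested activity-regulated effector genes 9 rose and none fell, with a median of 0.32. Dusp1, which dephosphorylates MAP kinases, had effects of 3.07 and 3.41 at 1 and 6 h and a mean of 1.20 (SE 0.23, limma adjusted p = 0.00108). Its effects at 72 and 240 h were -0.86 and -0.09, and neither passed. The prostaglandin synthase Ptgs2 had a peak of 3.03 at 6 h and a mean of 1.01. Errfi1, an inhibitor of the EGF receptor, had a peak of 3.04 at 6 h and a mean of 0.78. At 72 and 240 h its effects were -0.42 and -0.17, which did not pass. Gadd45a, a stress protein, had a mean of 0.35 (adjusted p = 0.0395) and passed at no single time. Hbegf, a ligand of the EGF receptor, was the sole gene of the 156 that passed at 240 h. At that time it read 59.7, 56.8 and 46.0 after kainate, against 11.7, 22.5 and 12.8 after PBS. The PBS values of 11.7 and 12.8 lay close to the floor of 10.9, whereas the PBS arrays of 72 h read 54.3, 42.1 and 45.2. The effect of Hbegf was 2.08 at 6 h, -0.26 at 72 h and 1.84 at 240 h, with a mean of 1.08 (SE 0.15, limma adjusted p = 2.28e-05).

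Among 19 tested neuropeptides and growth factors 9 rose and 1 fell, with a median of 0.38. Beside Bdnf and Hbegf the rises were those of Vgf (0.58), Penk (0.58), Crh (0.50), Trh (0.50), Scg2 (0.50), Tac1 (0.46) and Npy (0.38), and the fall was that of the neurotrophin Ntf3 (-0.27). Npy, a peptide that dampens glutamate release in the hippocampus, was higher on every kainate array than on any PBS array of the same time at 1, 6, 24 and 72 h. At 24 h it read 646, 838 and 591 after kainate, against 412, 375 and 419 after PBS. At 240 h it read 271, 240 and 261 after kainate, against 226, 260 and 327 after PBS, and the groups overlapped. Its mean effect was 0.38 (SE 0.06, limma adjusted p = 0.000126).

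Of 19 tested reactive astrocyte genes 9 rose, with a median of 0.29. In order of time the list's median effects were -0.01, 0.37, 0.75, 0.06 and 0.37, largest at 24 h. Of 36 tested genes of the extracellular matrix and remodelling 8 rose, with a median of 0.07. Lgals3, a galectin of phagocytes and reactive glia, read 247, 271 and 270 at 24 h after kainate, against 10.9, 10.9 and 16.1 after PBS. It was also higher on every kainate array at 6 h (37.9, 50.5 and 47.1, against 12.1 to 21.6 after PBS) and at 72 h (27.1, 21.96 and 23.4, against 11.5 to 12.9 after PBS). Its mean was 1.49 (SE 0.16, limma adjusted p = 3.04e-07), with 2 kainate and 4 PBS arrays at the floor of 10.9. The calcium-binding protein S100a4 had effects of 2.92 at 24 h and 1.45 at 72 h, the sole gene of the 156 that passed at 72 h, and a mean of 0.93. Vimentin (Vim), an intermediate filament of reactive astrocytes, had an effect of 2.55 at 24 h and a mean of 0.70. The protease Mmp9 rose by 2.53 and 2.31 at 6 and 24 h (mean 1.08), and the secreted protein Spp1 by 3.07 at 24 h (mean 0.97). Ccn1 had effects of 2.14, 3.04 and 1.15 at 1, 6 and 24 h and a mean of 1.38 (SE 0.18, limma adjusted p = 6.71e-06). It stood at the floor on 1 of 15 kainate arrays and on 11 of 15 PBS arrays. Pdlim4, a PDZ and LIM domain protein bound to actin fibres, had effects of 2.70, 2.36 and 1.28 at 6, 24 and 72 h and -0.76 and -0.48 at 1 and 240 h (mean 1.02, adjusted p = 0.0105).

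The marker lists of cell types are set beside 2.7% higher and 1.51% lower over all tested genes, and no list was tested. Of 17 tested microglia and macrophage markers 4 rose (Lgals3, the complement chain C1qb at 0.72, the oxidase subunit Cyba at 0.69 and the tetraspanin Cd63 at 0.50), with a median of 0.13. The mean log2 signal of that list lay between 5.87 and 7.01 on the kainate arrays and between 5.90 and 6.23 on the PBS arrays. For complement and antigen presentation it was 3 of 15, with C1qb, the immunoproteasome subunit Psmb8 (0.78) and RT1-Da (0.51). Of 14 astrocyte markers only Fabp7 rose (0.53), and their mean log2 signal was 8.38 to 9.04 on kainate arrays and 8.38 to 8.98 on PBS arrays. Of 10 oligodendrocyte genes only the tetraspanin Cd9 rose (0.46), with 8.87 to 9.71 on kainate arrays and 8.68 to 9.74 on PBS arrays for the list. Of 15 blood and vessel markers only the glucose transporter Slc2a1 rose (0.44), with 6.48 to 6.94 on kainate arrays and 6.47 to 6.86 on PBS arrays. None of 10 markers of the choroid plexus and neighbouring regions passed (6.28 to 7.10 on kainate arrays, 6.21 to 7.20 on PBS arrays). No marker of these lists was at the floor on all 30 arrays. The part that shifts in cell composition have in the mean effects was not tested.

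**Figure D4:**
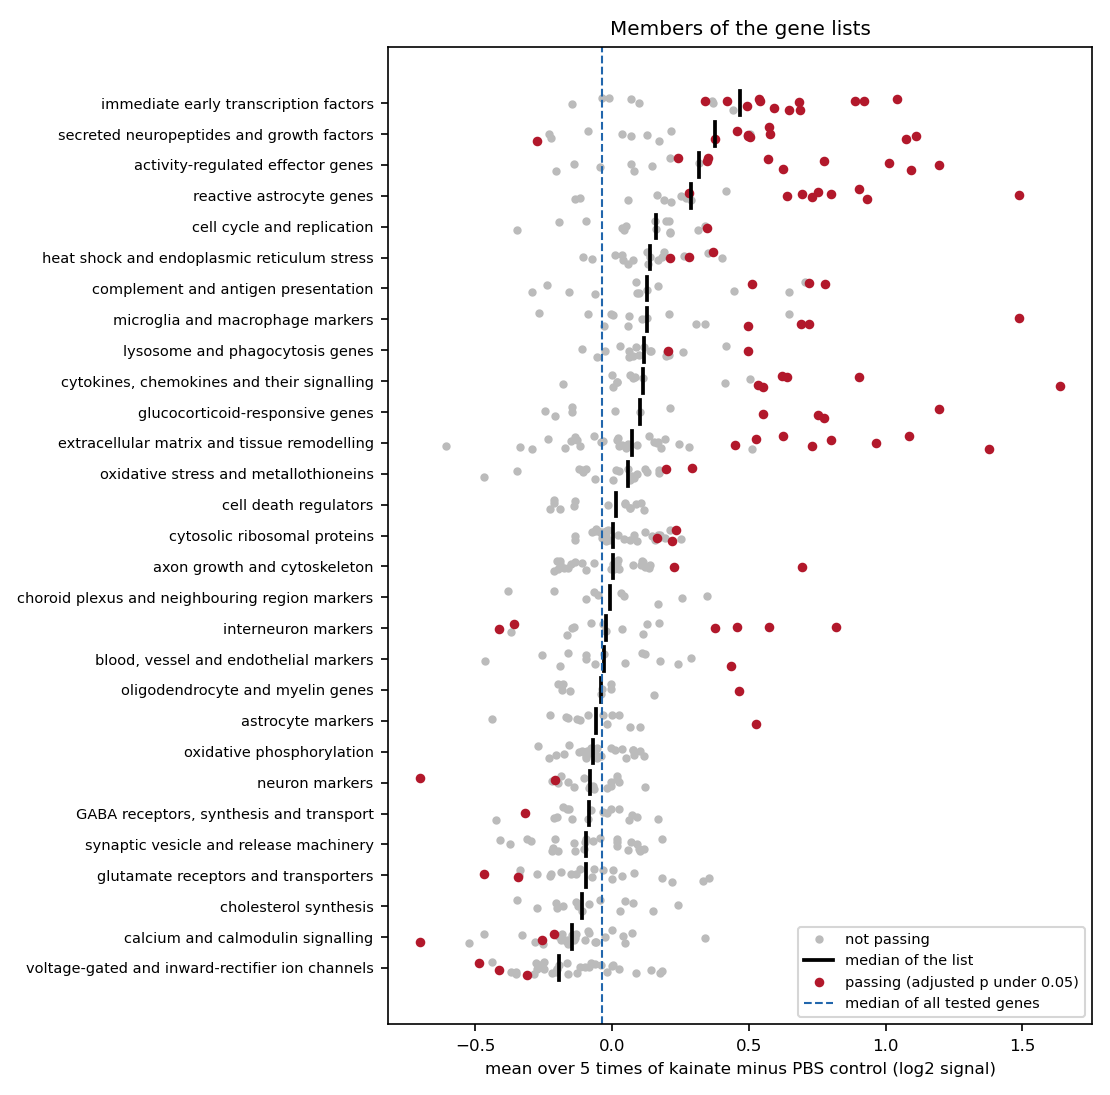
Mean effect over 5 times (kainate minus PBS control, log2 signal) of each tested member of 29 gene lists, with members passing at an adjusted p under 0.05 in red, the list median as a black bar and the median of all tested genes as a dashed line. Medians run between -0.19 for ion channels and 0.47 for immediate early transcription factors.

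Over all tested genes 1.51% fell, and 2167 of 3707 had a mean effect below 0. None of 19 tested neuron markers rose and 2 fell, Camk2a and the calmodulin-binding Nrgn (-0.21). Of these markers 15 had a mean effect below 0, and the median was -0.08. The mean log2 signal of the neuron list was 9.35 to 9.91 on kainate arrays and 9.67 to 9.94 on PBS arrays. Of 22 tested glutamate receptor and transporter genes 2 fell, the AMPA receptor subunits Gria1 and Gria2, and none rose (median -0.10). Of 18 tested genes of GABA signalling 1 fell, the receptor subunit Gabra5 (-0.32, adjusted p = 0.0107), with a median of -0.08. Of 35 tested voltage-gated and inward-rectifier channel genes 3 fell, Kcnq3, the potassium channel Kcnc2 (-0.41, for 1 of 3 tested probe sets, whose means reached 0.12) and the calcium channel Cacna1b (-0.31). Their median was the lowest of any list, -0.19, and 28 of 35 lay below 0. Over all tested genes the median was -0.04 and 2167 of 3707 lay below 0. Of 30 tested calcium and calmodulin genes 3 fell, Camk2a, the inositol trisphosphate kinase Itpka (-0.26) and the calcineurin subunit Ppp3ca (-0.21), with a median of -0.15.

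Gria1 and Gria2 code for subunits of the AMPA receptor, the main carrier of fast excitation, and Gria2 makes the channel impermeable to calcium. Gria2 ran between 290 and 496 (median 388) on the 15 kainate arrays and between 367 and 661 (median 506) on the 15 PBS arrays. All 15 kainate values lay below the median of the PBS values, although the ranges overlapped. Its effects were -0.27, -0.35, -0.47, -0.24 and -0.40, and the mean of -0.34 (SE 0.08, limma adjusted p = 0.0117) was 1.27-fold lower. It passed at no single time, and the F test of differences between times did not pass (adjusted p = 0.941). Gria1 ran between 247 and 643 (median 487) after kainate and between 363 and 804 (median 679) after PBS. Its groups were apart at 24, 72 and 240 h, with the deepest effect of -0.95 at 24 h, and the mean was -0.47 (SE 0.09, limma adjusted p = 0.00144). For Gria1 1 of 3 tested probe sets passed and for Gria2 1 of 2, all of them with negative means (-0.47 to -0.26 and -0.34 to -0.20).

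Kcnq3, a subunit of the M-current channel that limits repetitive firing, read 84.1, 82.9 and 86.9 at 24 h after kainate, against 115, 217 and 184 after PBS. The groups overlapped at the other times, where the effects lay between -0.31 and -0.47. Its mean was -0.49 (SE 0.12, limma adjusted p = 0.0117), 1.40-fold lower. Pvalb, a calcium buffer of fast-spiking interneurons that was singled out after its values were seen, was lower on every kainate array than on any PBS array at 6, 24, 72 and 240 h. At 24 h it read 143, 125 and 87.3 after kainate, against 168, 174 and 169 after PBS, and its mean was -0.36 (SE 0.08, limma adjusted p = 0.00618). Among 18 tested interneuron markers Pvalb and Kcnc2 fell while Crhbp (0.82), Penk, Tac1 and Npy rose. The list's mean log2 signal was 7.44 to 8.03 on kainate arrays and 7.53 to 7.77 on PBS arrays.

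Camk2a, a subunit of the calcium and calmodulin kinase of synapses, read 26.5, 10.9 and 17.4 at 24 h after kainate, against 55.8, 71.5 and 64.9 after PBS, and its groups overlapped at the other times. Its mean was -0.70 (SE 0.14, limma adjusted p = 0.00233), but the other of its 2 tested probe sets had a mean of 0.24. Cap2, an actin regulator, was the one gene that fell and still passed with any single time left out. It read 233, 263 and 365 at 240 h after kainate, against 451, 502 and 454 after PBS. Its effects were -0.88, -0.69 and -0.73 at 24, 72 and 240 h and -0.20 and 0.11 at 1 and 6 h, with a mean of -0.48 (SE 0.08, limma adjusted p = 0.000197).

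Ndst1, which adds sulfate to heparan sulfate chains, and Acadm, an enzyme of fatty acid oxidation had their largest effect at 1 h, 56.4% and 54.1% of the summed sizes of the 5 effects. Ndst1 read 11.4, 23.6 and 38.5 at 1 h after kainate, against 78.4, 60.2 and 114 after PBS, an effect of -1.90, and the other effects were -0.26 to -0.46 (mean -0.67, SE 0.16, limma adjusted p = 0.009). Acadm had an effect of -1.63 at 1 h, -0.22 to -0.48 at the other times and a mean of -0.60 (adjusted p = 0.0356). Among the largest falls were also Prkaa2 (-0.73), the sodium and calcium exchanger Slc24a2 (-0.51), the riboflavin kinase Rfk (-0.49), the integrin Itgb7 (-0.48, with 0.14 for its other tested probe set), the olfactory receptor gene Or2z2 (-0.46) and the mitochondrial ribosomal protein Mrpl50 (-0.46). These calls were less firm: with 1 array left out at a time, Prkaa2, Acadm and Itgb7 passed in 15 of 30 fits each, Or2z2 in 10, Mrpl50 in 21 and Rfk in 22. Slc24a2 did not pass without replicate 3 of the 6 h kainate arrays (-0.47).

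A set of 16 genes had passed, had the same sign at all 5 times and had the largest smallest-of-5 effects, so their equal signs are part of how they were picked. The higher ones were Ccl2, Bdnf, Irf3, Zfp36l1, Zmiz1, Hspa5, Nrdc and Plcd1, and the lower ones Ndst1, Acadm, Kcnq3, Or2z2, Mrpl50, Tbp, Gria2 and Tnrc6b. Zfp36l1, which targets mRNAs with AU-rich elements for decay, and Hspa5, the chaperone BiP of the endoplasmic reticulum, were higher on every kainate array than on any PBS array of the same time at 6, 24, 72 and 240 h. Hspa5 read 1049, 1111 and 941 at 6 h after kainate, against 645, 615 and 603 after PBS, and 746, 720 and 738 at 72 h after kainate, against 497, 552 and 580 after PBS. Its mean was 0.37 (SE 0.06, limma adjusted p = 5.85e-05), 1.29-fold higher, for 1 of its 2 tested probe sets. Zfp36l1 read 346, 364 and 312 at 24 h after kainate, against 247, 244 and 196 after PBS, with a mean of 0.56 (SE 0.09, limma adjusted p = 0.000129). For both genes all 15 kainate values lay above the median of the 15 PBS values. Of 19 tested heat shock and endoplasmic reticulum genes 3 rose, Hspa5, Cryab (0.28) and Hspd1 (0.21), and none fell. A mean above 0 was found for 17 of the 19 (median 0.14), beside 1540 of 3707 tested genes.

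The other genes of this set had small or less certain effects. Tbp, the TATA-binding protein, had effects between -0.26 and -0.36 and a mean of -0.34 (SE 0.09, limma adjusted p = 0.03), and passed in 21 of 30 fits with 1 array left out. Nrdc, a metalloprotease, had effects between 0.16 and 0.26 (mean 0.21, 9 of 30 fits). Irf3, a transcription factor of interferon responses, had effects between 0.55 and 1.26. Its mean was 0.93 (SE 0.26, limma adjusted p = 0.0367, 17 of 30 fits), and its PBS values spread between 14.6 and 126. At 6 h Irf3 read 14.5, 17.2 and 89.3 after kainate, against 16.8, 14.6 and 14.8 after PBS. The effect of 0.87 at that time therefore rested on replicate 3 of the kainate arrays. Its groups were apart at 1 and 240 h and overlapped at 6, 24 and 72 h. The phospholipase Plcd1 (0.71) passed in 18 of 30 fits, and the transcriptional coregulator Zmiz1 (0.86) and Tnrc6b (-0.43), a protein of miRNA silencing, in all 30. Zmiz1 stood at the floor on 2 of 15 kainate and 7 of 15 PBS arrays, and Plcd1 on 0 of 15 kainate and 6 of 15 PBS arrays. Further genes that passed for the mean and at no single time were the growth factor receptor Fgfr1 (0.25), the tubulin Tuba4a (-0.27), Kcnc2 and LOC102546572 (-0.38, lost without replicate 3 of the 24 h PBS arrays at -0.34).

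**Figure D5:**
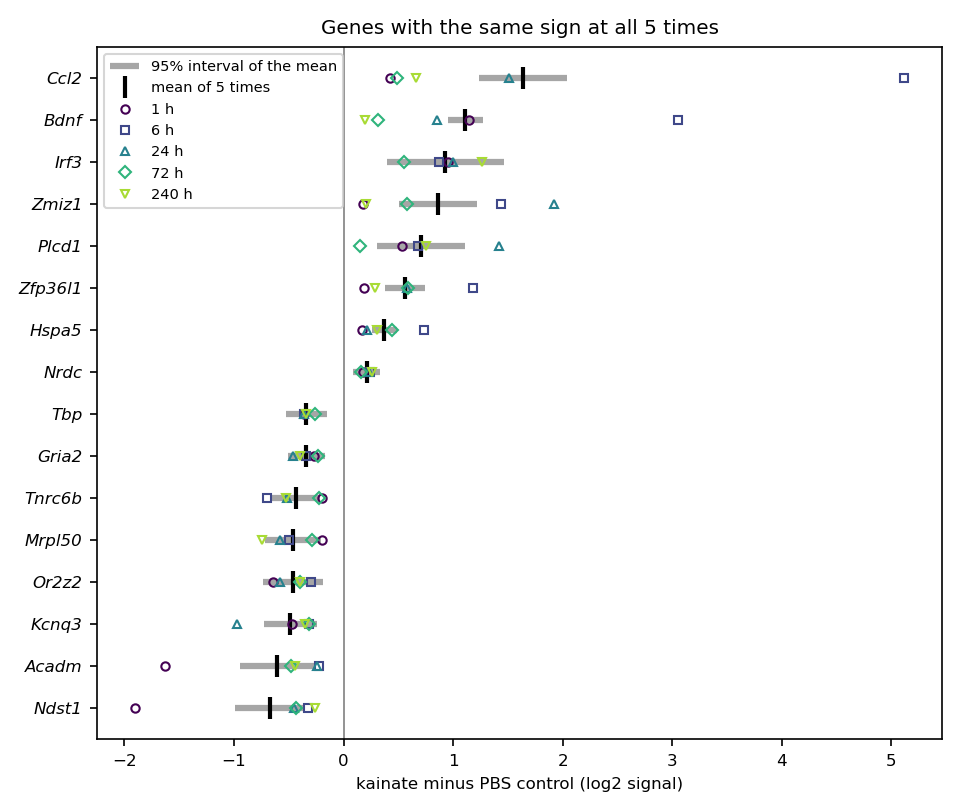
Effects at each of the 5 times (open symbols), their mean (black tick) and its 95% interval from limma (grey bar) for 16 genes with the same sign at all 5 times, on a log2 scale of kainate minus PBS control. Ccl2 and Bdnf have 1 time far above the rest (5.11 and 3.05 at 6 h), while the 5 effects of Tbp, Gria2 and Nrdc lie close together.

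The promoters of 3 genes that rose are shown to place, in each, the letters of 1 regulatory element that was searched in all promoters. The 3 were chosen after their values were seen, among the genes whose promoter holds such an element. They run from 250 bases before to 50 bases after the start and come from RefSeq, build GRCr8. Capitals mark the element: the endoplasmic reticulum stress element in Hspa5 (chr3:38452766-38453065, plus strand, first letter 43 bases before the start), an AP-1 site in Zfp36l1 (chr6:104668641-104668940, minus strand, 152 bases before) and a full cAMP response element in Dusp1 (chr10:17184603-17184902, plus strand, 124 bases before).
Hspa5: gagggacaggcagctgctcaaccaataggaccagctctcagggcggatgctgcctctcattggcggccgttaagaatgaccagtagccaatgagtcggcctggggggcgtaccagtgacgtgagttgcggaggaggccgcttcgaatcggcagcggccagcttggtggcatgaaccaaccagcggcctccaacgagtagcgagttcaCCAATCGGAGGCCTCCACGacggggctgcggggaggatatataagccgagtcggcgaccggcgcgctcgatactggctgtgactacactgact
Zfp36l1: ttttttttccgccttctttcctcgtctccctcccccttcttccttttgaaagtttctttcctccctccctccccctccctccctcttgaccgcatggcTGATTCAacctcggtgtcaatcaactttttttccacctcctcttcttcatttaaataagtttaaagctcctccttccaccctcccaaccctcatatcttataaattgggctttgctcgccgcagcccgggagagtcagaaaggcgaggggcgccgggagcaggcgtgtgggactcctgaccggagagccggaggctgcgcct
Dusp1: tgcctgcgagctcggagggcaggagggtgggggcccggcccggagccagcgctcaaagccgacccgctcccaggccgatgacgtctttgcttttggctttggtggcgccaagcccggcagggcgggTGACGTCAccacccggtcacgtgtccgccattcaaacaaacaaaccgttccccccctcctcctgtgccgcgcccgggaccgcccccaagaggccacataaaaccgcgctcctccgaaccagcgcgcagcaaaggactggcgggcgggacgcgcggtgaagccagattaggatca
Each motif was searched on both strands, as TGACGTCA for the cAMP response element, TGANTCA for AP-1 and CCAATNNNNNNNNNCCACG for the stress element. A promoter was on hand for 80 of the 100 genes that rose, 44 of the 56 that fell and 3024 of 3707 tested. The cAMP response element was in 7 of 80 (8.75%) promoters of genes that rose and 2 of 44 (4.55%) of genes that fell, beside 2.71% of those tested and 2% of all 27457 promoters. The AP-1 letters were in 11 of 80 (13.8%) and 2 of 44 (4.55%), beside 5.65% of those tested and 8.04% of all. The stress element was in 1 of 80 (1.25%) and 0 of 44, beside 0.198% of those tested and 0.0765% of all. A match describes these letters in this window and is not evidence that the factor binds there.

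Separation of the arrays set a stricter mark than the mean. No gene had all 15 kainate arrays on one side of all 15 PBS arrays, and none had its groups apart in the same direction at all 5 times. At 4 times the groups were apart in the direction of the mean for 8 of 3707 genes (0.216%), all of them among the 156. They were Hspa5, Npy, Zfp36l1, Bdnf and the filamin Flnc higher, and the focal adhesion kinase Ptk2, Pvalb and Smim7 lower. Separation and mean come from the same arrays, which favours this overlap in advance. Flnc, Ptk2 and Smim7 are named after their values were seen. Flnc had a mean of 0.65 (SE 0.09, limma adjusted p = 1.17e-05) and Smim7 one of -0.40 (adjusted p = 0.0183). Ptk2 read 212, 201 and 220 at 24 h after kainate, against 287, 302 and 273 after PBS, and the other way at 240 h, 210, 220 and 233 after kainate, against 175, 185 and 182 after PBS. Its mean was -0.21 (adjusted p = 0.0276), lost without replicate 3 of the 6 h kainate arrays (-0.18) or replicate 3 of the 72 h PBS arrays (-0.20).

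A mean near 0 did not mean an absence of effect. Of the genes whose effect differed between times 159 had a mean under 0.25 in size. Nr4a3, an orphan nuclear receptor, read 678, 560 and 447 at 1 h after kainate, against 196, 226 and 209 after PBS. At 24 h it read 106, 90.4 and 99.5 after kainate, against 208, 189 and 238 after PBS. Its groups were apart upward at 1 and 6 h and downward at 24, 72 and 240 h, and the mean was 0.07 (SE 0.07, limma adjusted p = 0.608). The synaptic vesicle protein Syt4 had an effect of 1.21 at 6 h and -0.58 at 240 h (mean 0.07, adjusted p = 0.562). Dbp, a clock-controlled transcription factor, read 30.9, 25.6 and 15.6 at 6 h after kainate, against 75.4, 46.4 and 57.4 after PBS. At 24 h it read 321, 302 and 291 after kainate, against 168, 88.8 and 107 after PBS, and its mean was 0.09 (adjusted p = 0.715). Fibronectin (Fn1, 0.18) and the kinase Sgk1 (0.21) also did not pass for the mean. Ppp3ca did, with an effect of -0.98 at 24 h and -0.26 to 0.09 at the other times.

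The remaining lists stand beside 2.7% higher over all tested genes, and none was tested as a whole. Of 21 oxidative stress genes Gpx1 (0.29) and Gstp1 (0.20) rose, of 19 lysosome genes Cd63 and Anxa5 (0.20), and of 27 cytoskeleton genes Vim and Stmn4 (0.22). Of 15 cell cycle genes Gadd45a rose. Of 11 glucocorticoid-responsive genes 4 rose, Dusp1, Errfi1, S100a10 (0.75) and Nfkbia, with a list median of 0.10. Of 34 ribosomal protein genes Rpl35 (0.23), Rpl14 (0.22) and Rpl11 (0.17) rose, with a list median of 0.01. None of 25 synaptic vesicle, 26 oxidative phosphorylation, 15 cholesterol synthesis or 14 cell death genes passed in limma, with list medians of -0.09, -0.07, -0.11 and 0.02. Many of the smaller effects hung on single arrays. With 1 array left out at a time, Anxa5 passed in 6 of 30 fits, Hspd1 in 7, Gstp1 in 9, Rpl14 in 10, Cryab in 14, Gadd45a in 16, Ntf3 in 18, Gpx1 in 19, Stmn4 in 20, Itpka in 22 and Stat3 in 26. Nrgn did not pass without replicate 3 of the 6 h kainate arrays or replicate 1 of the 72 h kainate arrays (-0.19 each).

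The call for the mean depended on which spread it was set against. The main test uses the spread between replicate arrays and so speaks of these 5 times. With the differences between times counted in the spread, by an additive model of time and treatment, 49 genes passed (1.32%), 34 higher and 15 lower. They included Bdnf and Hspa5 (adjusted p = 0.0027 each), Zfp36l1 (0.0035), Cap2 (0.0089), Gria1 (0.010) and Gria2 (0.019), but not Arc (0.18), Junb (0.16), Dusp1 (0.093) or Pdlim4 (0.12). With the 5 differences as 5 values no gene passed after adjustment, and 235 did at an unadjusted p under 0.05, 112 of them among the 156.

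Averages over each set of times alone gave 14 genes that passed in both, all of them higher: Vgf, Arc, Cd63, Fos, Nptx2, Fabp7, Vim, Timp1, Nr4a2, Ifitm3, Bdnf, Hbegf, Lgals3 and Ccn1. Of these, Lgals3 and Ccn1 exceeded the minimum signal on 0 PBS arrays and were tested through their kainate arrays. Over 6 and 72 h 130 genes passed (3.51%), and over 1, 24 and 240 h 22 (0.593%). The sign was the same in both sets for 155 of the 156 genes. The 5-time mean by which they were picked is made of both sets, which favours equal signs in advance. The exception was Gpx1 (-0.01 over 6 and 72 h, 0.50 over the others). With any 1 of the 5 times left out 18 of the 156 genes passed each time, 17 of them higher, with Cap2 as the lower one. With any 1 of the 30 arrays left out 96 passed each time, 74 higher and 22 lower.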

How the data were processed

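The deposited values are linear signal intensities of probe sets, for total RNA of rat hippocampus on 30 arrays in 10 groups of 3. The labels used here do not state how the authors turned images into intensity values (not given in the sources used here). The deposited trimmed means (2% off each end) of 150.1 to 150.2 show a common scaling already in place. There is no read depth on an array, and precision is limited by the number of arrays.

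Arrays were set to 1 trimmed mean, values below the 20th percentile (signal 10.9, log2 3.44) were raised to it, and log2 was taken. Tested probe sets exceeded 35 on at least 3 of 30 arrays, and the 59 array controls were dropped. The platform annotation gave 1 gene for 7006 of 8740 probe sets, several for 308 and none for 1426, and a current identifier for 6985. Probe sets with several genes named none.

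limma 3.58.1 in R 4.3.3 estimated 10 group means with empirical Bayes moderation and an intensity trend (20 residual and 7.27 prior degrees of freedom). The contrast was the equal-weight mean of 5 same-time differences, adjusted by Benjamini-Hochberg with a threshold of 0.05. Python 3.11.15 with pandas 2.3.3 and matplotlib 3.10.9 made the tables and plots. The procedure was tested on simulated data.

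The members, gene lists and rules were chosen with earlier results of these data known. The rule named the 12 largest rises and 12 largest falls that passed, 8 higher and 8 lower genes with the same sign at 5 times and the largest smallest effect, and the 6 with the smallest adjusted p that passed at no single time. It also named the 2 largest passing members of each of the 29 lists shown in the plot of list members, and the 6 with the smallest p for differences between times and a mean under 0.25. Lists share genes. Kainate and PBS arrays share replicate numbers in the labels, which do not say whether the numbers pair the arrays. The deviations of 15 same-numbered pairs correlated between -0.07 and 0.17, with 3 above 0.1, which cannot settle it. The main fit did not take the numbers as pairs, and a fit with them as a block is given below. Alternatives were other normalizations, filters and spreads, array weights, a replicate block, and the omission of each time and each array.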

Additional observations from a re-analysis of the deposited data

Results flagged for a closer look

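By the limma F test adjusted over all probe sets, the effect of kainate differed between the 5 times for 43 of 76 genes. The 76 are those named by rule or after their values were seen, and other list members mentioned above are not counted. Of 20 tested immediate early transcription factors, for example, 14 differed between times. The mean over times of the 43 genes does not stand for each time. The adjusted p of that test follows each gene. Among transcription factors and activity genes these were Fos (3.18e-09), Junb (2.62e-06), Egr1 (3.75e-08), Nr4a1 (2.42e-09), Nr4a3 (2.42e-09), Arc (1.07e-10), Nptx2 (1.8e-09), Errfi1 (1.8e-09), Dusp1 (0.000214), Ptgs2 (9.94e-05), Plat (0.00117) and Syt4 (1.51e-06). Among growth factors and peptides they were Bdnf (7.88e-09), Hbegf (0.00827), Penk (0.0165), Crhbp (0.00542) and Npy (0.024). Genes of inflammation and microglia were Ccl2 (7.78e-06), Socs3 (0.0016), C1qb (0.00181), Psmb8 (0.0314) and Cd63 (3.75e-06). Reactive astrocyte, matrix and cytoskeletal genes were Lgals3 (1.88e-06), S100a4 (7.03e-06), Vim (7.49e-07), Fabp7 (9.31e-07), Mmp9 (0.00654), Spp1 (0.000663), Ccn1 (0.00385), Fn1 (0.000289), Pdlim4 (0.00528), Flnc (0.0178) and Anxa5 (0.038). Other genes with a higher mean were Cd9 (0.00295), Slc2a1 (0.00142), Gpx1 (0.00229) and Rpl14 (0.011). Of the genes with a lower mean they were Cap2 (0.0382), Itpka (0.0318), Ppp3ca (0.000309) and Ptk2 (0.0434). The clock factor Dbp (9.68e-05) and the kinase Sgk1 (0.000196) had means under 0.25 in size.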

How the results depend on the processing

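Of 6314 probe sets 279 passed for the mean, 188 higher and 91 lower, and 78 genes of the lists passed. Quantile normalization (290), log2 of signal plus 16 without a floor (307), no filter on low signals (305), a minimum signal of 100 (302) and no intensity trend (256) kept the counts within 1.5 times. Array weights gave 145 lower. The additive model gave 93 (69 higher, 24 lower) and 31 list genes, because differences between times enter its spread. With the 5 differences as 5 values it was 0 (0 higher, 0 lower, 0 list genes) in limma, with 438 at an unadjusted p under 0.05. Lower calls rose to 169 without 1 h and fell to 42 without 72 h. Without 6 h 140 passed (90 higher, 50 lower, 45 list genes), without 24 h 126 (114 higher, 12 lower, 41 list genes) and without 240 h 526 (295 higher, 231 lower). The times 6 and 72 h alone gave 56 lower, and 1, 24 and 240 h alone gave 50 (41 higher, 9 lower, 20 list genes). Apart from the additive model, the cause was not tested. Gpx1 reversed to -0.013 over 6 and 72 h alone (adjusted p = 0.951). With 1 array left out the count lay between 213 and 398 (161 to 220 higher, 52 to 178 lower, 64 to 92 list genes), and the F test, which passed for 417, between 310 and 469. Lower calls moved by over 1.5 times without replicate 2 of the 240 h PBS arrays (54), replicate 1 of the 72 h PBS arrays (55), replicate 1 (58) or 3 (178) of the 1 h kainate arrays or replicate 3 of the 6 h kainate arrays (52). Of the 76 genes named by rule or after their values were seen 54 kept their side of the threshold in all 30 such fits. With replicate number as a block within each time 281 passed (172 higher, 109 lower), and the F test passed for 311. In that fit 11 of 70 named genes no longer passed for the mean. The labels do not say whether the numbers pair the arrays. Same-numbered arrays correlated weakly, between -0.07 and 0.17, which cannot settle it. Probe sets near background limit the size of differences for genes at the floor.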
